A study of Mus musculus with 6 samples.

Results

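Long-chain fatty acids enter membrane phospholipids in successive steps, and the 9 genes described here encode enzymes of the activating and of the reacylating step. They are the acyl-CoA synthetase long-chain genes *Acsl1*, *Acsl3*, *Acsl4*, *Acsl5* and *Acsl6* and the lysophosphatidylcholine acyltransferase genes *Lpcat1*, *Lpcat2*, *Lpcat3* and *Lpcat4*. They were chosen by function, to ask whether the higher level of *Acsl4* in mutant oocytes was shared by its paralogs, and all 9 were found among the 17577 listed genes. Transcripts were measured by a modified Smart-seq2 protocol, which reverse-transcribes polyadenylated RNA and amplifies the cDNA, with a single oocyte as the described input. The 6 libraries came from ovarian oocytes of C57BL/6J mice aged 12 weeks, 3 of them *Bnc1*tr/tr and 3 wild type (WT). *Bnc1*tr/tr mice are homozygous for a frameshift allele that truncates basonuclin 1, a zinc finger transcription factor found in germ cells, and carry it in all tissues. The methods of the study describe collection of germinal vesicle (GV) stage oocytes from antral follicles after gonadotropin priming, in both genotypes, and comparison of littermates. Which mouse each library came from was not given in the sources used here, so the p-values measure the spread between these libraries.

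ACSL enzymes esterify a long-chain fatty acid to coenzyme A, and the acyl-CoA can then be oxidised, stored as triglyceride or placed in a phospholipid. ACSL4 prefers arachidonic and other polyunsaturated acids, and LPCAT enzymes return acyl groups to lysophospholipids in the deacylation and reacylation cycle known as the Lands cycle. ACSL4 and LPCAT3 are best known together for enriching membranes in polyunsaturated phospholipids, the substrates of the lipid peroxidation that drives ferroptosis, an iron-dependent form of cell death that the study examined in these oocytes.

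The sequences before the transcription starts of *Acsl1*, *Acsl3* and *Acsl4* are shown because these 3 members were called higher in *Bnc1*tr/tr oocytes. Each is a 300-base window of RefSeq on GRCm38.p6, from 250 bases before to 50 bases after an annotated start, read 5′ to 3′ on the strand of the gene. Capitals mark matches on either strand to CATTCC (a core of the TEAD site), CCAAT (the CCAAT box), TGACGT (the core of the cAMP response element), TCACNCCAC (a sterol regulatory element) and GGGCGG (the GC box). The *Acsl1* window lies at chr8:46470787-46471086 on the plus strand, the *Acsl3* window at chr1:78657575-78657874 on the plus strand and the *Acsl4* window at chrX:142390486-142390785 on the minus strand.
*Acsl1*: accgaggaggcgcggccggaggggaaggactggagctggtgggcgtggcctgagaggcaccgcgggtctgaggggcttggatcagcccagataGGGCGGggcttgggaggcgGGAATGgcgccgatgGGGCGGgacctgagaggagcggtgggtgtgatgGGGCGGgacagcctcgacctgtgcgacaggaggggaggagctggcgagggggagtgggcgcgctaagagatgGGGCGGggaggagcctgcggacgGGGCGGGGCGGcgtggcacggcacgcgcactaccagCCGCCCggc
*Acsl3*: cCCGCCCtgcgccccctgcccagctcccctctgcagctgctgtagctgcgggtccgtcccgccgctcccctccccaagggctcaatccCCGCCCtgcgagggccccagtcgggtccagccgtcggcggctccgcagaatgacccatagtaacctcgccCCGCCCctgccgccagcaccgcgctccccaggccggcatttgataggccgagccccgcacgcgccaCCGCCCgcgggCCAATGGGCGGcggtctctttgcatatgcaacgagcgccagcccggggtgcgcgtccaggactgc
*Acsl4*: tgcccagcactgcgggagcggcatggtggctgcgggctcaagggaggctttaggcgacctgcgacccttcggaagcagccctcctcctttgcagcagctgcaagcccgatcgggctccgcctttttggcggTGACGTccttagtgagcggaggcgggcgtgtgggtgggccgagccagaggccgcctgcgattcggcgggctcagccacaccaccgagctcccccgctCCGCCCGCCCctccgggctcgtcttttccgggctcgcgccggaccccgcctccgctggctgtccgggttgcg

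The windows of the 3 genes were rich in G and C, at 74.0%, 74.0% and 71.7% of bases, and GC boxes were the motif they had in common, with 7 matches in *Acsl1*, 5 in *Acsl3* and 2 in *Acsl4*. A GC box was found in 35.7% of all 32851 promoter windows of the table. CATTCC, in 14.7% of all windows, matched once in the *Acsl1* window and in no window of *Acsl3*, *Acsl4* or the other members. TGACGT, in 7.51% of all windows, matched in *Acsl4* and also in *Lpcat1*, and CCAAT, in 37.4%, matched in *Acsl3* alone of the 3 windows shown. *Acsl1* had another annotated start, with a window at chr8:46490716-46491015, which held 2 CCAAT matches and a match to TCACNCCAC (1.24% of all windows), and had 50% G and C. The LPCAT windows held 2 to 6 GC boxes each, so this motif did not separate the genes that were higher from those that were not. These are matches of letters in fixed windows, and no binding was measured.

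*Bnc1* itself was listed at 9.04, 6.51 and 5.83 FPKM (mapped fragments scaled to transcript length and library size) in *Bnc1*tr/tr replicates 1 to 3 and at 13.17, 12.54 and 16.23 FPKM in the WT replicates. Its level was lower in every mutant library, with a log2 fold change of -0.89 (SE 0.20, limma adjusted p = 0.0090). The allele leaves a transcript in place, so this level is an indirect check of the genotype labels. FPKM totals were 657550 to 724550 per library, and the depth estimated from the steps of low values was 13.36 to 17.14 M (mega) fragments for *Bnc1*tr/tr libraries and 14.89 to 22.18 M for WT libraries. Genes of at least 1 FPKM numbered 10682 to 11035 in *Bnc1*tr/tr and 9518 to 9748 in WT libraries, without overlap, and genes above 0 numbered 15258 to 15736 against 13896 to 14576. All 13 oocyte markers were listed, with summed levels of 16289 to 17578 FPKM in *Bnc1*tr/tr and 18422 to 19922 FPKM in WT. The sums did not overlap and were lower in *Bnc1*tr/tr, while the label of oocyte held in both groups. By the rule given below, 1 was higher and 2 were lower, beside 24.1% and 7.68% of all tested genes. These were *Mos* (0.90, adjusted p = 0.019) and *Zp2* and *Nlrp5* (-0.74 and -0.62, adjusted p = 0.032 and 0.026), each call lost in some fits that left out a library. The list median was -0.23, against 0.15 for all tested genes. Granulosa and theca markers, 14 of 15 of them listed, summed to 50.9 to 66.5 FPKM in *Bnc1*tr/tr and 23.4 to 41.7 FPKM in WT, with no overlap. Of the 6 that could be tested, *Fshr*, *Kitl* and *Cyp11a1* were higher and 0 were lower, beside the same 24.1% and 7.68% of all tested genes. *Fshr* averaged 0.35 FPKM in WT and passed the filter only through its mutant level. *Cyp19a1*, the aromatase gene and the largest part of the sum, was at 35.1 ± 8.58 against 23.3 ± 5.79 FPKM and was not called (0.57, adjusted p = 0.10), nor was *Inha* (-1.11, adjusted p = 0.24). *Amhr2*, *Foxl2* and *Lhcgr* were at 0 in all mutant libraries and at or under 0.21 FPKM in all WT libraries. Immune, endothelial and red cell markers, 16 of 18 listed, summed to 66.6 to 140 FPKM in *Bnc1*tr/tr and 76.3 to 109 FPKM in WT, with 0 higher and 1 lower, *Pecam1* (-1.02, adjusted p = 0.0048), of the 6 tested. All 10 of the markers at 0 in every WT library were above 0 in at least 1 mutant library, the only direction in which such markers could differ. Among them were *Lyz2* at 5.81, 47.97 and 0 FPKM and *C1qa* at 1.39, 1.66 and 0.61 FPKM. *C1qb*, the most abundant marker of the list, went the other way in its means, at 60.8 ± 8.98 against 80.9 ± 15.3 FPKM. It was not called (-0.40, limma adjusted p = 0.16). The part of these other cell types, and of the number of genes detected, in the differences between the genotypes was not tested.

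Of the 9 members, 7 averaged 1 FPKM or more across the 6 libraries and were tested. *Acsl1*, *Acsl3* and *Acsl4* were higher in *Bnc1*tr/tr oocytes, by 1.72 to 2.26 times in mean FPKM, and none of the 4 LPCAT genes passed the test in either direction. A gene was called where the limma adjusted p was under 0.05 and the absolute log2 fold change was over 0.5. By this rule 3 of the 7 tested members were higher, beside 24.1% of all 10560 tested genes, and 0 were lower, beside 7.68%. At an unadjusted p under 0.05 in limma, 3 members were higher, beside 30.6% of all tested genes, and 1, *Lpcat4*, was lower, beside 12.3%. Fold changes are on the scale of log2(FPKM + 1), on which the median of all tested genes was itself 0.15 and the middle of the distribution ran from a lower quartile of -0.20 to an upper quartile of 0.61. The direction of calls over all genes depended on the scaling, with 2547 higher and 811 lower as deposited and 1666 higher and 1804 lower after quantile normalization. FPKM is a share of each library, so an oocyte with more or less RNA in all cannot be told apart from one with the same amount.

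*Acsl4* (Gene ID 50790, chrX:142317993-142390535, minus strand, GENCODE M21 on GRCm38) was listed at 9.61, 8.53 and 8.82 FPKM in *Bnc1*tr/tr oocytes and at 4.80, 4.11 and 3.01 FPKM in WT oocytes. The lowest mutant library stood above the highest WT library. The means were 8.99 ± 0.559 and 3.97 ± 0.903 FPKM (SD, n = 3), a log2 fold change of 1.02 (SE 0.18, 95% interval 0.60 to 1.44, adjusted p = 0.0031), or 0.88 above the median gene.

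*Acsl1* (14081, chr8:46471037-46536051, plus strand), the main long-chain synthetase of liver, heart and fat, was listed at 18.81, 13.67 and 16.72 FPKM in *Bnc1*tr/tr and at 9.37, 7.31 and 6.59 FPKM in WT oocytes. Here too the groups did not overlap. The means of 16.4 ± 2.58 and 7.76 ± 1.44 FPKM gave a log2 fold change of 0.99 (SE 0.19, 95% interval 0.56 to 1.43, adjusted p = 0.0045), nearly that of *Acsl4*.

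*Acsl3* (74205, chr1:78657825-78707743, plus strand), whose enzyme resides on the endoplasmic reticulum and on growing lipid droplets, was the most abundant member. Its levels were 100.37, 103.37 and 90.66 FPKM in *Bnc1*tr/tr and 55.33, 51.89 and 63.50 FPKM in WT oocytes, with a wide gap between the groups. The means were 98.1 ± 6.64 and 56.9 ± 5.96 FPKM, and the log2 fold change was 0.78 (SE 0.16, 95% interval 0.41 to 1.15, adjusted p = 0.0067). For each of these 3 genes the exact two-sided permutation test gave p = 0.10, the smallest that 3 against 3 libraries allow. Among all tested genes their fold changes stood at percentiles 86.5 (*Acsl4*), 86.0 (*Acsl1*) and 80.8 (*Acsl3*). Calls of this size were common in these libraries, and no comparison of the family with other genes was made.

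The remaining synthetases, *Acsl6* and *Acsl5*, had means under the 1 FPKM needed for the test. *Acsl6* (216739, chr11:54303798-54364756, plus strand), a synthetase of brain and testis that favours docosahexaenoic acid, was listed at 1, 1.14 and 0.30 FPKM in *Bnc1*tr/tr and at 0.13, 0.21 and 0.12 FPKM in WT oocytes. The ranges did not overlap, although the mutant libraries differed among themselves more than did the WT libraries, and the ratio of the means was 5.30. An estimated 28.7 to 108 fragments stood behind the mutant values and 10.8 to 18.9 behind the WT values. In a fit without the filter its log2 fold change was 0.62 (SE 0.20, adjusted p = 0.084), so it did not pass. *Acsl5* (433256, chr19:55251938-55297720, plus strand), a synthetase of the intestine and of mitochondria, was listed at 0.42, 0.33 and 0.22 FPKM against 0.06, 0.16 and 0.50 FPKM. Its WT libraries spanned all of the mutant values, and its log2 fold change without the filter was 0.11 (SE 0.15, adjusted p = 0.68). A level of 3 fragments, taken as the floor, equalled 0.0243 to 0.0402 FPKM for *Acsl6* and 0.0338 to 0.0558 FPKM for *Acsl5*, counting error only. These fragments and floors rest on the longest coding transcript, of 5807 bases for *Acsl6* and 4243 for *Acsl5*. The median coding transcripts were 2364 and 487 bases, and shorter lengths would give fewer fragments and higher floors. Among the 7 tested members, *Acsl1*, *Acsl3* and *Acsl4* had groups that did not overlap and were higher in *Bnc1*tr/tr, where 32.7% of all tested genes showed that pattern. *Acsl6*, which was not tested, showed it too, and no such share was computed for genes under the filter.

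**Figure D1:**
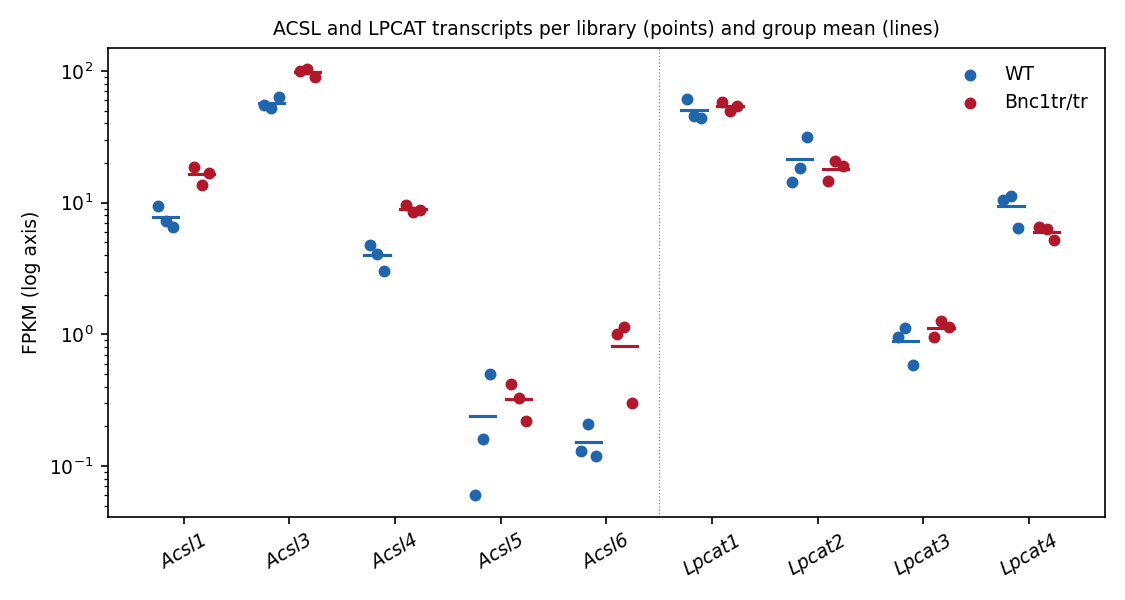
Level of each member in FPKM on a log axis, with a point per library and a line at each group mean (3 WT libraries in blue, 3 Bnc1tr/tr libraries in red). The red points of Acsl1, Acsl3, Acsl4 and Acsl6 all lie above the blue ones, while the points of Acsl5 and of the 4 LPCAT genes overlap.

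*Lpcat1* (210992, chr13:73467197-73516422, plus strand), which favours saturated acyl chains and is known for lung surfactant, was listed at 58.30, 49.95 and 54.13 FPKM in *Bnc1*tr/tr and at 61.51, 45.27 and 44.10 FPKM in WT oocytes. The mutant values lay within the WT range. The log2 fold change of 0.12 (SE 0.18, 95% interval -0.30 to 0.54, adjusted p = 0.67) covered 0 and changed sign under 2 other scalings.

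*Lpcat2* (270084, chr8:92855339-92919279, plus strand), whose enzyme also acetylates lyso-platelet-activating factor, was listed at 14.59, 20.65 and 18.97 FPKM in *Bnc1*tr/tr and at 14.29, 18.45 and 31.46 FPKM in WT oocytes. All mutant values fell inside the WT range, which WT replicate 3 stretched. The log2 fold change was -0.17 (SE 0.28, 95% interval -0.80 to 0.46, adjusted p = 0.68), and without WT replicate 3 it was 0.13 (adjusted p = 0.66). Of the 31-base words of its coding transcripts, 9.15% also occurred in *Gm45472*. Among the synthetases such sharing was 3.59% for *Acsl1*, 4.61% for *Acsl3* (with *Utp14b*), 0% for *Acsl4* and 7.45% for *Acsl5* (with 487 other genes).

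*Lpcat3* (14792, chr6:124663027-124704418, plus strand), the acyltransferase that places arachidonic and linoleic acid in phosphatidylcholine and phosphatidylethanolamine, was the lowest of the LPCAT genes. It was listed at 0.95, 1.27 and 1.14 FPKM in *Bnc1*tr/tr and at 0.95, 1.12 and 0.59 FPKM in WT oocytes, on an estimated 26.2 to 44.2 fragments per library. A library of each genotype had the same value, and the 95% interval of its log2 fold change of 0.18 ran from -0.22 to 0.57 (SE 0.17, adjusted p = 0.48). The added 1 in log2(FPKM + 1) shrinks differences at such low levels, and the ratio of its means was 1.26. Its overall mean was 1.003 FPKM, at the edge of the filter, and 13.5% of its 31-base words were shared with *Emg1*.

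*Lpcat4* (99010, chr2:112239468-112247111, plus strand), which acts on lysophosphatidylcholine and lysophosphatidylethanolamine, had a 95% interval below 0 and an adjusted p over the threshold. It was listed at 6.49, 6.30 and 5.19 FPKM in *Bnc1*tr/tr and at 10.53, 11.28 and 6.42 FPKM in WT oocytes. WT replicate 3 stood among the mutant libraries, and the other WT libraries stood well above them. The log2 fold change was -0.54 (SE 0.22, 95% interval -1.05 to -0.04, unadjusted p = 0.036, adjusted p = 0.092) and did not pass. It passed without WT replicate 3, at -0.77 (adjusted p = 0.010). It also passed under upper-quartile, median-ratio and quantile scaling, at -0.67 to -0.87 (adjusted p = 0.031 to 0.0082). With every library scaled to the same FPKM total (TPM) it did not pass, at -0.549 (limma adjusted p = 0.14).

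**Figure D2:**
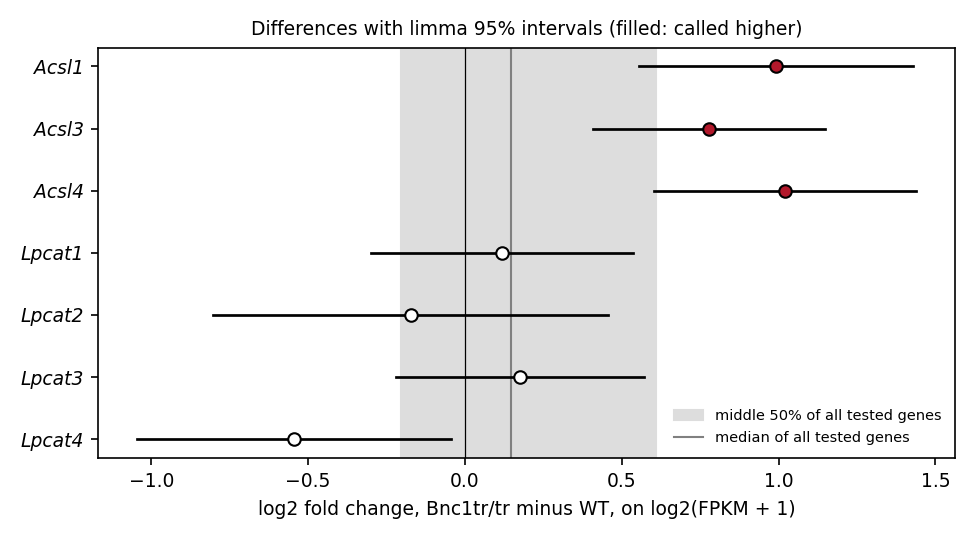
Log2 fold change of the 7 tested members on log2(FPKM + 1), Bnc1tr/tr minus WT, with 95% intervals from limma, against the middle 50% of all 10560 tested genes (grey band) and their median of 0.15 (grey line). The points of Acsl1, Acsl3 and Acsl4 lie to the right of the band, those of Lpcat1, Lpcat2 and Lpcat3 lie within it, and that of Lpcat4 lies to its left.

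FPKM is scaled to length, so levels were set side by side between members. The annotation, and with it the gene lengths behind the values, is not given in the sources used here. Orders and shares of different genes are therefore approximate. In WT oocytes the order from the highest was *Acsl3*, *Lpcat1*, *Lpcat2*, *Lpcat4*, *Acsl1*, *Acsl4*, *Lpcat3*, *Acsl5* and *Acsl6*, and the libraries of 3 neighbouring pairs overlapped, *Acsl3* with *Lpcat1*, *Lpcat4* with *Acsl1*, and *Acsl5* with *Acsl6*. In *Bnc1*tr/tr oocytes *Acsl3* stood clear of *Lpcat1*, *Acsl1* reached the range of *Lpcat2*, and both *Acsl1* and *Acsl4* stood above *Lpcat4*. The 3 lowest genes, *Lpcat3*, *Acsl6* and *Acsl5*, overlapped from neighbour to neighbour. *Acsl3* ranked 1927 among all 17577 genes by WT mean and 1317 by mutant mean, and *Acsl4* ranked 6913 and 5721.

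Summed over the 5 ACSL genes, levels were 130.21, 127.04 and 116.72 FPKM in *Bnc1*tr/tr and 69.69, 63.68 and 73.72 FPKM in WT oocytes, 1.81 times higher in the mutant mean (125 ± 7.05 against 69.0 ± 5.05 FPKM, SD, n = 3). The sums did not overlap. The 4 LPCAT genes summed to 80.33, 78.17 and 79.43 FPKM in *Bnc1*tr/tr and to 87.28, 76.12 and 82.57 FPKM in WT, with a ratio of 0.967 and overlapping libraries. No test was made on these sums.

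The makeup of each family overlapped between the groups. *Acsl3* supplied 78.7% ± 2.32 of the ACSL sum in *Bnc1*tr/tr oocytes, against 82.3% ± 3.45 in the wild type (SD, n = 3). *Acsl1* supplied 13.2% ± 2.09 against 11.3% ± 2.26, and *Acsl4* supplied 7.22% ± 0.444 against 5.81% ± 1.51. In both groups *Acsl3* thus made up most of the summed ACSL transcript and *Acsl4* a small part of it. Among the LPCAT genes *Lpcat1* supplied 68.2% ± 4.34 against 61.1% ± 8.65 and *Lpcat3* only 1.41% ± 0.222 against 1.09% ± 0.378.

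**Figure D3:**
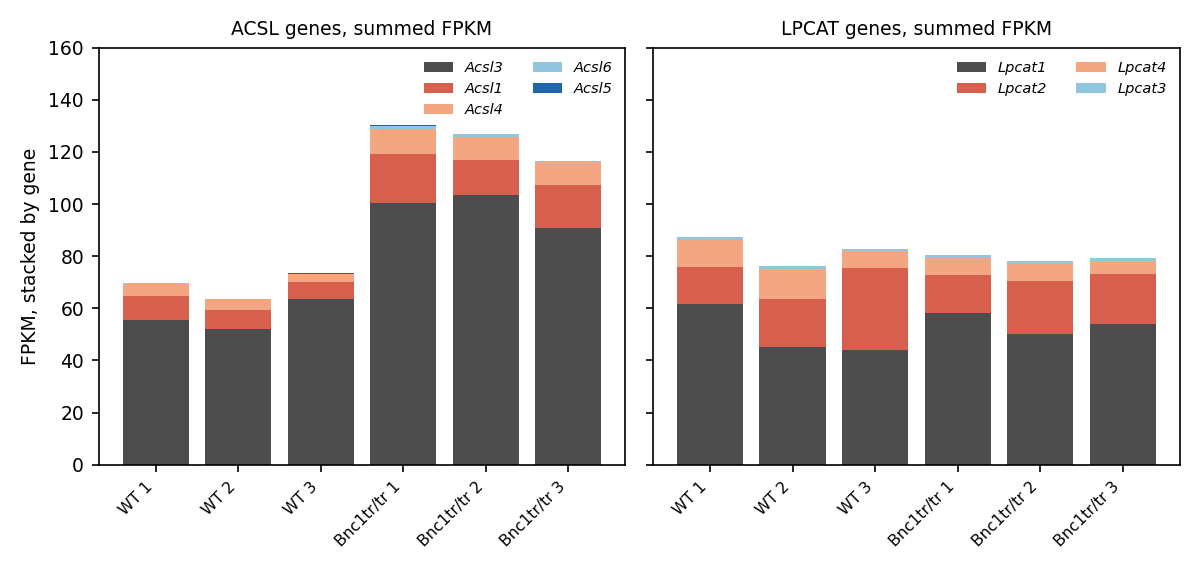
Summed FPKM of the 5 ACSL genes (left) and the 4 LPCAT genes (right) in each of the 6 libraries, stacked by gene. The ACSL bars rise from 63.68 to 73.72 FPKM in WT to 116.72 to 130.21 FPKM in Bnc1tr/tr with Acsl3 as the largest block throughout, while the LPCAT bars all lie between 76.12 and 87.28 FPKM.

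To ask whether *Acsl4* changed by more than its paralogs, the difference between its log2(FPKM + 1) and that of each other tested gene was compared between the genotypes within the same libraries. The fold change of *Acsl4* exceeded that of *Acsl1* by 0.03 (SE 0.18, 95% interval -0.39 to 0.44, adjusted p = 0.89) and that of *Acsl3* by 0.24 (SE 0.23, 95% interval -0.28 to 0.76, adjusted p = 0.36). The added 1 shrinks the difference of *Acsl4* more than that of the abundant *Acsl3*, and their ratios of means were 2.26 and 1.72. With 0.1 added instead, the excess was 0.11 over *Acsl1* (limma adjusted p = 0.64) and 0.39 over *Acsl3* (limma adjusted p = 0.22). The ratio of *Acsl4* to *Acsl1* was nearly the same in both groups, at -0.79 ± 0.15 and -0.82 ± 0.11 on the log2 scale (SD, n = 3).

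Against the LPCAT genes *Acsl4* rose in relative terms. The excess was 0.90 over *Lpcat1* (SE 0.18, adjusted p = 0.0020), 1.19 over *Lpcat2* (SE 0.38, adjusted p = 0.017), 0.85 over *Lpcat3* (SE 0.19, adjusted p = 0.0038) and 1.57 over *Lpcat4* (SE 0.19, adjusted p = 0.00026). For each of these 4 pairs the libraries of the groups did not overlap, and permuting the libraries gave an exact two-sided p of 0.10, which is the lower limit here. *Acsl4* passed such a test against 68.3% of all 10559 other tested genes, so 4 of 6 members is close to the background share. The excess over *Lpcat2* was no longer past the threshold without *Bnc1*tr/tr replicate 1 (1.01, adjusted p = 0.060). With *Lpcat4* the order of the levels was turned around, *Acsl4* being lower in all 3 WT libraries and higher in all 3 mutant libraries, with mean log2 ratios of -1.05 ± 0.19 and 0.52 ± 0.14.

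*Lpcat3*, the partner of *Acsl4* in ferroptosis, was set against the other LPCAT genes in the same way. Its difference exceeded that of *Lpcat1* by 0.06 (exact permutation p = 0.80), that of *Lpcat2* by 0.35 (exact p = 0.90) and that of *Lpcat4* by 0.72 (exact p = 0.10). Only the ratio of *Lpcat3* to *Lpcat4* did not overlap between the groups, with log2 fold changes of 0.18 and -0.54 for the genes themselves. The share of all genes whose ratio to *Lpcat3* did not overlap was not computed, so this pattern has no background beside it.

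**Figure D4:**
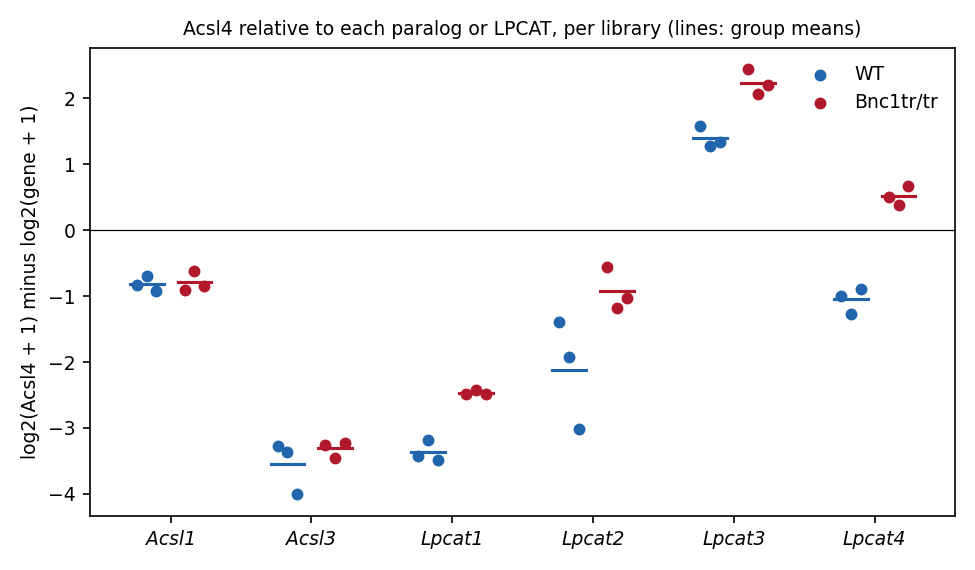
Difference between log2(FPKM + 1) of Acsl4 and that of each of 6 other members, with a point per library and a line at each group mean (WT in blue, Bnc1tr/tr in red, values above 0 meaning that Acsl4 was the higher gene). The groups overlap for Acsl1 and Acsl3, are apart for the 4 LPCAT genes, and lie on opposite sides of 0 for Lpcat4.

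The enzymes around the ACSL and LPCAT steps were read from 7 lists. Of 66 tested genes 23 were higher and 3 were lower, 34.9% and 4.55% of those tested, beside the 24.1% and 7.68% of all genes, and their median log2 fold change was 0.27 against 0.15. Up to 4 called genes of each list were named, by their absolute change. Genes that were lower or not called were named for their role, after their values had been seen. Among the genes called higher, *Slc27a6*, *Acsm2*, *Fabp2*, *Gpat3*, *Pla2g7*, *Pla2g4e* and *Chpt1* averaged under 1 FPKM in WT oocytes. They passed the filter only through their mutant levels, and the counts above include them.

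Beside the ACSL genes, only 4 of 16 listed synthetases and fatty acid transport proteins were high enough to test, and 2 were higher. These were *Slc27a6*, a fatty acid transport protein with synthetase activity (2.33 ± 0.973 against 0.227 ± 0.0929 FPKM, log2 fold change 1.40, adjusted p = 0.0015), and *Acsm2*, a medium-chain synthetase (0.81, adjusted p = 0.013). Neither approached the levels of *Acsl1* or *Acsl3*. *Acsm2* was no longer called after quantile normalization.

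Acyl-CoA thioesterases undo the activation by releasing the free acid, and 2 of the 9 tested were higher. *Acot5*, a peroxisomal thioesterase, was listed at 36.39, 25.37 and 26.99 FPKM in *Bnc1*tr/tr and at 2.86, 0.97 and 3.07 FPKM in WT oocytes, a log2 fold change of 3.27 (SE 0.29, adjusted p = 5.7e-05), larger than that of any member. *Acot9*, a mitochondrial thioesterase, was higher by 0.89 (SE 0.17, adjusted p = 0.0047). The median of the list was -0.13, below that of all genes.

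Proteins that carry fatty acids or acyl-CoA included 4 of 10 tested genes that were higher. *Fabp5*, a fatty acid binding protein, was the most abundant of them, with 243 ± 19.6 FPKM in *Bnc1*tr/tr and 95.3 ± 12.3 FPKM in WT oocytes (log2 fold change 1.35, adjusted p = 0.00045). *Fabp2*, the intestinal form, and *Fabp7*, the brain form, were higher by 2.91 (adjusted p = 0.00014) and 1.71 (adjusted p = 0.0024). *Acbd3*, an acyl-CoA binding domain protein of the Golgi, was higher by 0.61 (adjusted p = 0.027), a call lost under upper-quartile and median-ratio scaling. It was also lost without *Bnc1*tr/tr replicate 1 or 3 or WT replicate 1 or 2. *Dbi*, the acyl-CoA binding protein, was not called (-0.07, adjusted p = 0.81) at 388 to 579 FPKM in WT oocytes.

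Among the other glycerophospholipid acyltransferases 4 of 11 tested genes were higher and 1 was lower. *Gpat3* and *Gpat4*, the glycerol-3-phosphate acyltransferases of the endoplasmic reticulum that begin triglyceride and phospholipid synthesis, were higher by 2.89 (SE 0.20, adjusted p = 1.6e-05) and 1.97 (SE 0.23, adjusted p = 0.00026). *Gpat3* was listed at 9.59, 14.00 and 8.68 FPKM against 0.46, 0.56 and 0.65 FPKM. *Lclat1*, a lysocardiolipin acyltransferase, was higher by 0.85 (adjusted p = 0.0054), and *Lpgat1*, a lysophosphatidylglycerol acyltransferase, by 0.70 (adjusted p = 0.017). *Abhd5*, an activator of triglyceride lipase, was lower at -0.56 (adjusted p = 0.025). The call of *Lpgat1* was lost under upper-quartile, median-ratio and quantile scaling and without *Bnc1*tr/tr replicate 2 or WT replicate 2. That of *Abhd5* was lost without *Bnc1*tr/tr replicate 2 or 3 or WT replicate 1 or 2. Of the genes of the *Lpcat3* family, *Mboat2* was not called (0.44, adjusted p = 0.14). *Mboat1* and *Mboat7* averaged under 1 FPKM over the 6 libraries and were not tested. *Mboat1*, which acts on lysophosphatidylserine and lysophosphatidylethanolamine, was at 0.42 to 1.05 FPKM in *Bnc1*tr/tr and 0.04 to 0.18 FPKM in WT libraries. *Mboat7*, which acts on lysophosphatidylinositol, was at 0.24 to 0.46 FPKM in *Bnc1*tr/tr and 0.73 to 1.71 FPKM in WT libraries. The share of all genes without overlap was not computed for genes under the filter, so no result is drawn from either gene.

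Phospholipases A2 and platelet-activating factor hydrolases open the Lands cycle by making the lysophospholipid that LPCAT enzymes use, and 6 of 14 tested were higher and 2 lower. *Pla2g7*, which hydrolyses platelet-activating factor and oxidised phospholipids, was listed at 11.67, 16.68 and 12.81 FPKM in *Bnc1*tr/tr and at 0.14, 0.17 and 0.25 FPKM in WT oocytes. Its log2 fold change of 3.62 (SE 0.18, adjusted p = 2.8e-06) was the largest in the 7 lists. *Pla2g4f*, *Pla2g4d* and *Pla2g4e*, of the cytosolic group, were higher by 2.77 (adjusted p = 4.4e-05), 1.24 (adjusted p = 0.00072) and 1.14 (adjusted p = 0.0044). *Pla2g4c*, the most abundant of the list at 154 to 170 FPKM in WT and 109 to 129 FPKM in *Bnc1*tr/tr oocytes, was not called (-0.44, adjusted p = 0.064), and *Pla2g4a*, the arachidonate-selective enzyme, was at or under 0.25 FPKM in every library. The lower genes were *Pla2g12a*, a secreted enzyme (-1.12, adjusted p = 0.026), and *Pafah1b3*, a catalytic subunit of intracellular platelet-activating factor acetylhydrolase (-0.59, adjusted p = 0.025), and both calls were lost in some of the fits that left out a library.

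In ether lipid synthesis 2 of 8 tested genes were higher, *Chpt1* (1.07, adjusted p = 0.0034) and *Selenoi* (0.91, adjusted p = 0.0064), which attach phosphocholine and phosphoethanolamine to a diglyceride. The peroxisomal genes *Gnpat*, which acylates dihydroxyacetone phosphate, and *Agps*, which then makes the ether bond, were at 0.03 (adjusted p = 0.96) and 0.01 (adjusted p = 0.97). In phosphatidylcholine and phosphatidylethanolamine synthesis 3 of 10 were higher, led by *Ptdss2*, a phosphatidylserine synthase (1.3, SE 0.28, adjusted p = 0.0082). The calls of *Etnk1* (0.60, adjusted p = 0.042) and *Pcyt1b* (0.57, adjusted p = 0.024) were lost under upper-quartile, median-ratio and quantile scaling. They were also lost in several fits that left out a library. That of *Etnk1* was also lost without the filter and with another variance model.

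**Figure D5:**
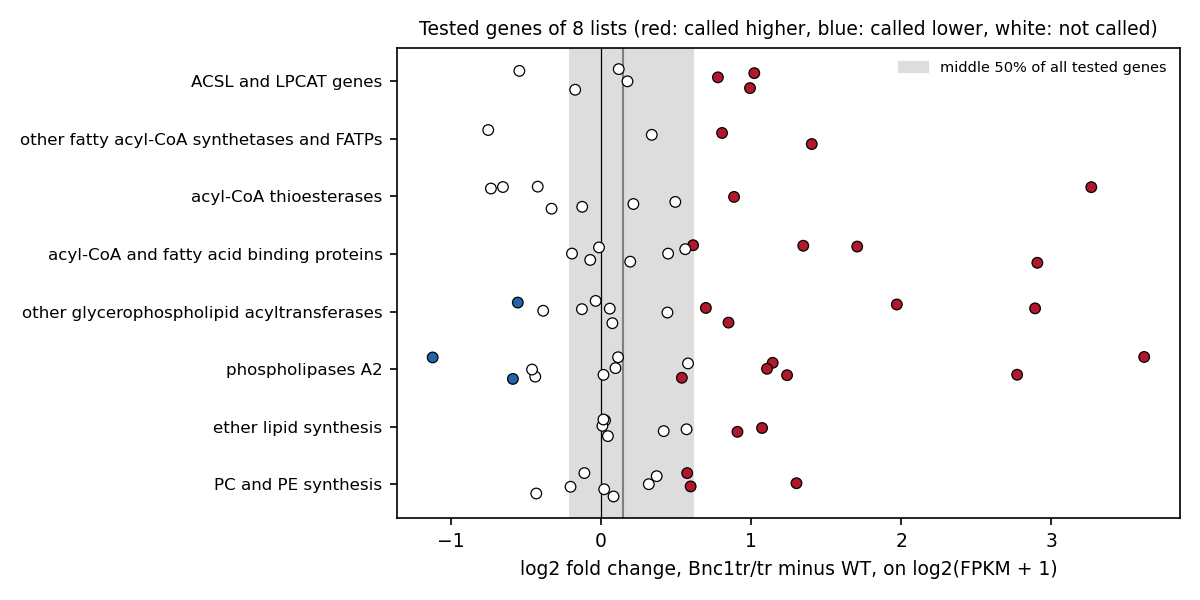
Log2 fold change on log2(FPKM + 1), Bnc1tr/tr minus WT, of every tested gene of the members and of 7 surrounding lists, with a point per gene (red, called higher; blue, called lower; white, not called) and a grey band for the middle 50% of all tested genes. The points farthest to the right are Pla2g7 at 3.62, Acot5 at 3.27, Fabp2 at 2.91 and Gpat3 at 2.89, all beyond Acsl4 at 1.02. Of these, Pla2g7, Fabp2 and Gpat3 averaged under 1 FPKM in WT and passed the filter only through their mutant levels.

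Over the 6 libraries the profile of *Acsl4* was most like those of *Slc35a5*, *Rlim*, *Abhd17a*, *Ppp6c* and *Twistnb*, with Pearson r of 0.997 to 0.999 on log2(FPKM + 1). Each of them was also higher in all 3 mutant libraries, and within each group they ranked the libraries in the order of *Acsl4*. Such likeness was common, since 1777 of 10559 tested genes had an r over 0.9 and all points share the difference between the genotypes. Among the members *Acsl1* had an r of 0.980 (rank 196), *Acsl3* 0.874, *Lpcat3* 0.653, *Lpcat1* 0.556, *Lpcat2* -0.52 and *Lpcat4* -0.54.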

How the data were processed

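For each library the authors deposited FPKM values of the same 17577 genes, rounded to 2 decimals. The submitters' processing notes name HISAT2 2.0.4, Bowtie2 2.2.5, RSEM 1.2.12 and GRCm38.p6, and which annotation was used is not given in the sources used here. FPKM is a share of the library, so abundant transcripts move the values of the others. Symbols that a spreadsheet had turned into dates (25) were restored through the Gene ID.

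Groups were taken from the genotype labels and compared on log2(FPKM + 1) by limma 3.58.1 (R 4.3.3), leaving out genes that averaged under 1 FPKM across the 6 libraries. Values of p were adjusted by the Benjamini-Hochberg method over all 10560 tested genes, or 10559 for differences from *Acsl4*. Calls needed a log2 fold change over 0.5 in size and an adjusted p under 0.05, thresholds that the study names. Single values were compared by exact two-sided permutation of the libraries (SciPy 1.17.1). The scripts were tested on simulated data.

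Depth was estimated from the spacing of low FPKM values of 859 genes with 1 annotated transcript. Fragments and floors of the members were estimated with the length of the longest coding transcript. The cDNA was amplified and carried no molecular identifiers, so floors cover counting error only. Gene positions and shared 31-base words came from GENCODE M21 and promoter windows from RefSeq. The planned comparison of protein sequences was not made, since no protein sequences were used here. Figures were drawn with matplotlib 3.10.9.

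The members, lists, motifs and tests were chosen with earlier results of these data known. A rule set part of the names in the text: all 9 members, *Bnc1*, up to 4 called genes of each list by absolute change, and the 5 genes with the highest correlation with *Acsl4*. It does not cover the cell type markers, the calls lost under alternatives or the list genes that were lower or not called. Those list genes were named for their role, after their values had been seen. Alternatives were other pseudocounts, filters, scalings, variance models and fold thresholds, the replicate number as a block, and leaving out each library.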

Additional observations from a re-analysis of the deposited data

How the results depend on the processing

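*Acsl1*, *Acsl3* and *Acsl4* kept their direction and their call under all 15 alternatives (log2 fold changes of 0.72 to 1.12, 0.56 to 0.86 and 0.67 to 1.18, adjusted p at most 0.022, 0.039 and 0.015). With an absolute log2 fold change over 1 as the threshold, 1 member was called higher. Leaving out each library gave 0.893 to 1.12 for *Acsl1*, 0.716 to 0.859 for *Acsl3* and 0.874 to 1.14 for *Acsl4*, 3 members higher throughout, 0 to 1 lower, and ratios of summed FPKM of 1.74 to 1.87 (ACSL) and 0.934 to 1.0 (LPCAT).

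*Lpcat4* was called lower, making 1 member lower, with upper-quartile (-0.667), median-ratio (-0.737) and quantile (-0.865) scaling and without WT replicate 3 (-0.772). *Lpcat1* turned to -0.0208 (upper-quartile) and -0.0998 (median-ratio), *Lpcat3* to -0.248 (quantile) and *Lpcat2* to 0.131 without WT replicate 3 (range without each library -0.412 to 0.131). These scalings moved the median of all genes from 0.15 to 0.02, -0.05 and -0.09. Quantile normalization turned *Acsl4* minus *Acsl1* to -0.0459 and *Acsl4* minus *Acsl3* to -0.057. Over the fits that left out a library, *Acsl4* minus *Acsl1* was -0.0561 to 0.0878, minus *Acsl3* 0.0151 to 0.379, minus *Lpcat1* 0.841 to 0.997, minus *Lpcat2* 0.742 to 1.55 (1.01, adjusted p = 0.06, without *Bnc1*tr/tr replicate 1), minus *Lpcat3* 0.742 to 0.935 and minus *Lpcat4* 1.46 to 1.65. The causes of these shifts were not tested. *Lpcat3* fell under the filter in 4 alternatives.

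Of the 26 calls in the 7 lists, 17 held under all alternatives run for them. The other 9, *Pcyt1b*, *Etnk1*, *Pnpla8*, *Lpgat1*, *Acbd3*, *Acsm2*, *Abhd5*, *Pafah1b3* and *Pla2g12a*, were lost in some, with 0 changes of sign.

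Replicate numbers were shared by the groups in the titles. Same-numbered libraries had correlations of 0.278, -0.034 and 0.124 of their deviations from the group means. *Bnc1*tr/tr replicates 1 and 3 were most like the WT library of the same number, and *Bnc1*tr/tr replicate 2 was most like WT replicate 3 (0.161). What the numbers stand for is not given in the sources used here, so they were not taken as pairs in the main fit. With the replicate block, *Lpcat4* was called at -0.545 (adjusted p = 0.045), 1 member was lower, the other members kept their calls, and 2781 genes were higher and 952 lower.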
